A study of Homo sapiens with 12 samples.

Results

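Occupancy of SREBP2 and RORγ and the level of H3K27ac were examined at 10 genes of the switch between epithelial and mesenchymal cell states, CDH1, GRHL2, OVOL1, CDH2, VIM, ZEB1, ZEB2, SNAI1, SNAI2 and TWIST1, out of 20090 protein-coding genes. These genes were chosen by name, and for each of them the called regions were taken that overlapped the promoter or lay within the gene or 20 kb to either side. A promoter was the stretch from 1 kb upstream to 100 bp downstream of any transcript start in the GENCODE 44 annotation of hg19. HCC70, an established human triple-negative breast cancer cell line, had been given vehicle or XY018, a synthetic compound that blocks the nuclear receptor RORγ, for 24 h. The labels give XY018 at 5 µM, whereas the methods of the study name a lower concentration. SREBP2 is the transcription factor that switches on cholesterol synthesis genes, and H3K27ac is a histone mark of active promoters and enhancers. Each antibody was used on 1 vehicle and 1 XY018 library, so no difference between treatments has a replicate check and no p-value is given.

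The epithelial-mesenchymal switch is the reversible program by which cells in a sheet lose their junctions and gain a migratory form, as in wound healing, gastrulation and the spread of carcinomas. E-cadherin, the product of CDH1, holds epithelial cells together, and GRHL2 and OVOL1 are transcription factors that keep the epithelial state. ZEB1, ZEB2, SNAI1, SNAI2 and TWIST1 are transcription factors that drive the mesenchymal state, the ZEB and SNAI proteins by silencing CDH1 through E-boxes in its promoter, while CDH2 (N-cadherin) and VIM (vimentin) are products of that state.

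The sequences are shown because the summits of SREBP2 at these genes share a composition that the choice of genes did not use. They are the 120 bp centred on the SREBP2 summit with vehicle at CDH1 (hg19, chr16:68771545-68771664, plus strand), OVOL1 (hg19, chr11:65555036-65555155, plus strand), SNAI1 (hg19, chr20:48599124-48599243, plus strand) and ZEB2 (hg19, chr2:145274494-145274613, minus strand), with CpG dinucleotides in capitals.
CDH1 SREBP2 summit: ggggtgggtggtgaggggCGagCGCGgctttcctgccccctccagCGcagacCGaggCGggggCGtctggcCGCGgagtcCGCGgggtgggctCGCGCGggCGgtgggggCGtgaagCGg
OVOL1 SREBP2 summit: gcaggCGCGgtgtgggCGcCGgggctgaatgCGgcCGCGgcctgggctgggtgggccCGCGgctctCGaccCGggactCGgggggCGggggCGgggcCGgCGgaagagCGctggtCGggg
SNAI1 SREBP2 summit: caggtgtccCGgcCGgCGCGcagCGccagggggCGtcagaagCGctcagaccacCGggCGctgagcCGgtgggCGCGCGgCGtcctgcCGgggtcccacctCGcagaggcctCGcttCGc
ZEB2 SREBP2 summit: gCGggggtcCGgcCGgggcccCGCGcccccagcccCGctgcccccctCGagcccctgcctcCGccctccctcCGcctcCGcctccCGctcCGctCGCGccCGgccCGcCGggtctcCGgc

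The SREBP2 summit of CDH1 lay 410 bp after the canonical start, inside the gene. The 4 printed summit stretches held 17, 18, 18 and 18 CpG dinucleotides, at a G+C content of 80.0%, 83.3%, 78.3% and 87.5%. Over 300 bp around the strongest SREBP2 summit with vehicle, the G+C content ran from 61.0% at SNAI2 to 83.0% at ZEB2 among the 9 genes with one, beside a median of 72.7% over the 12864 strongest SREBP2 promoter regions of all genes. In the same windows the ratio of observed to expected CpG ran from 0.683 at VIM to 1.22 at CDH2, beside a median of 0.830 over those regions of all genes. The summits of these genes were thus CpG-rich, as were those of promoters at large.

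The E-box CAGGTG, searched on both strands, was present in the canonical promoters (windows of 1101 bp) of 6 of the 10 genes, CDH1, GRHL2, OVOL1, ZEB1, SNAI1 and SNAI2, with 20 matches in all, and in 61.5% of the 19812 canonical promoters. CACGTG, an E-box that SREBP and USF factors can bind, occurred only in SNAI1 among the 10, with 2 matches, and in 19.6% of all promoters. The sterol response element TCACNCCAC had no match in any of the 10 promoters and was found in 6.11% of all promoters. The ROR elements TAGGTCA and TGGGTCA likewise had no match, against 6.79% and 12.4% of all promoters. These windows end 100 bp after the canonical start, whereas the vehicle SREBP2 summits of CDH1, VIM and ZEB1, among others, lay beyond them. In the 300 bp around the strongest SREBP2 and RORγ promoter summits of these genes, the sterol and ROR elements had no match either. No share over the summits of all genes is given for that search. None of the CAGGTG matches overlapped a CACGTG match.

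With vehicle, 9 of the 10 genes had a SREBP2 region at a promoter, beside 70.6% of all protein-coding genes. The same number, 9 of 10, held for SREBP2 with XY018 (62.7% of all genes), for RORγ with vehicle (62.7%) and with XY018 (61.5%), and for H3K27ac with vehicle (66.8%) and with XY018 (68.0%). GRHL2 was the gene without a factor region at its promoter and CDH2 the gene without H3K27ac. Both factors together were called at 9 of 10 promoters under either treatment, against 60.3% of all genes with vehicle and 57.6% with XY018. CDH2 alone had both factors without the mark, a pattern of 9.69% of all genes with vehicle and 7.93% with XY018. GRHL2 alone had the mark without either factor, as did 7.47% of all genes with vehicle and 12.3% with XY018. By overlap of a region with the promoter, no call at these 10 promoters differed between treatments. The pattern of the other 8 genes, a region in all 6 libraries, was shared by 9310 genes (46.3%), that of GRHL2 by 1215 (6.05%) and that of CDH2 by 1353 (6.73%).

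Part of these calls rested on which transcript start was used. When only the canonical start was counted, 7 of the 10 genes had a region in each library, because VIM and ZEB2 dropped out of all 6 lists. The VIM regions lay at starts downstream of the canonical one, and the ZEB2 regions about 3 to 4 kb downstream of it. When the window was widened to 5 kb upstream and 1 kb downstream, GRHL2 gained both factors and all 10 genes had them, while H3K27ac stayed at 9 genes. No shares of all genes are given for these other windows, so the counts there have no value to be read beside.

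The level at a promoter was taken as the number of fragments piled up at the summit of its strongest region, recovered from the deposited fold and p-value, and was divided by the genome-wide background of that library. Background was 1.03 and 1.21 fragments in the SREBP2 vehicle and XY018 libraries, 0.787 and 0.712 in those of RORγ and 1.17 and 1.07 in those of H3K27ac. Depth was 3.65 to 6.16 tags per kb over the 6 libraries. Intervals are exact at 95% and cover counting error only. The plot of promoter levels shows all 10 genes on this scale.

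**Figure D1:**
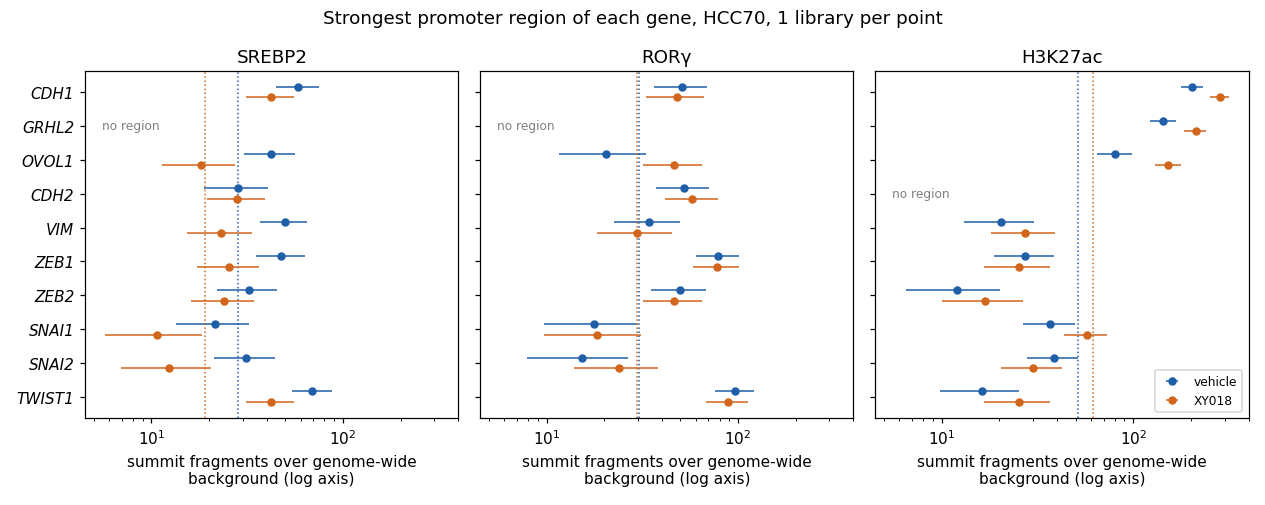
Summit fragments of the strongest promoter region over the genome-wide background of its library (log axis), for each gene, with vehicle in blue and XY018 in orange. Points are 1 library each, bars are exact Poisson 95% intervals for counting error, and dotted lines mark the median over all protein-coding genes with a region. H3K27ac at CDH1, GRHL2 and OVOL1 lay to the right of the median of the same treatment, while that at the other 6 genes with a region lay to the left of it.

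The epithelial genes carried the most H3K27ac of the 10. CDH1 (ENSG00000039068, hg19 chr16:68771195-68869440, plus strand) had 238 H3K27ac fragments (208.7 to 270.2) at its promoter with vehicle and 302 (268.9 to 338.1) with XY018. Only 167 of 13420 genes with a called promoter were as high with vehicle and 93 of 13665 with XY018, which places CDH1 among the top 1.24% and 0.681%. The ratio of XY018 to vehicle was 1.39 (1.17 to 1.65), so the counting interval lay above 1.

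At the CDH1 promoter SREBP2 piled up 60 fragments with vehicle against 51 with XY018. RORγ piled up 40 and 34 in the same order. The SREBP2 ratio was 0.720 (0.486 to 1.06) and the RORγ ratio 0.940 (0.577 to 1.52), and both intervals included 1. The SREBP2, RORγ and H3K27ac summits with vehicle fell 410, 359 and 414 bp after the canonical start, close to one another. In the levels of all 6 libraries, the genes most like CDH1 of the 9310 called in each were KDM5B, a histone demethylase, DNAJB6, a chaperone, and NFKBIA, the inhibitor of NF-κB, at Euclidean distances of 0.233, 0.238 and 0.266 on the log2 scale.

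GRHL2 (ENSG00000083307, hg19 chromosome 8, 102504667 to 102681954, plus strand), the grainyhead-like activator of epithelial genes, had 168 H3K27ac fragments at its strongest promoter region with vehicle and 226 with XY018. Its ratio was 1.47 (1.20 to 1.81), and 1191 of 13420 genes were as high with vehicle. The factors were not absent from the locus. A SREBP2 region with 51 fragments with vehicle and 34 with XY018 had its summit 1.45 kb after the canonical start, and a RORγ region with 30 and 23 fragments its summit at 1.40 kb. Both lay in an intron of GRHL2 and over the starts of unnamed genes, and both were picked out after their values were seen. The H3K27ac summit with vehicle was 1367 bp after the start, close to both.

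OVOL1 (ENSG00000172818, hg19 chr11:65554534-65564685, plus strand), a zinc finger repressor of mesenchymal genes, had 94 H3K27ac fragments with vehicle and 163 with XY018. The ratio of 1.90 (1.46 to 2.48) was the highest H3K27ac ratio of the 10 genes. SREBP2 had 43 and 22 fragments, a ratio of 0.433 (0.247 to 0.740). The summits of this pair lay at 562 bp with vehicle and −672 bp with XY018, and the deposited folds over local background, 9.46 and 8.93, were nearly equal, with a local background of 3.65 and 1.57 fragments. RORγ at the promoter had 16 and 17 fragments, with the vehicle summit at −520 bp (upstream of the canonical start). A stronger RORγ region with 33 fragments under both treatments had its summit at 0.548 kb with vehicle, and it reached into the promoter window only in the XY018 list, which is why the strongest XY018 promoter region had 33 fragments.

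Among the mesenchymal products, CDH2 (ENSG00000170558, hg19 chr18:25512843-25757910, minus strand) stood apart in having no H3K27ac region in either list within the gene or 20 kb of it. SREBP2 had 29 fragments at its promoter with vehicle against 34 with XY018, while RORγ had 41 in both libraries. The SREBP2 ratio was 0.993 (0.587 to 1.69) and became 1.10 when libraries were scaled by tags, so its direction depended on the scaling. The RORγ ratio was 1.11 (0.699 to 1.75). The canonical promoter was the richest in CpG of the 10, with 150 CpG dinucleotides and 75.3% G+C against a median of 54.7% over all promoters, and 1.89% of genes had as high a ratio of observed to expected CpG.

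VIM (ENSG00000026025, hg19 chr10:17270240-17279592, plus strand) encodes the intermediate filament of mesenchymal cells. SREBP2 at its promoter had 51 fragments with vehicle and 28 with XY018, a ratio of 0.465 (0.282 to 0.751). The summits of this pair lay 741 bp after the canonical start with vehicle and 1158 bp after it with XY018. RORγ had 27 and 21 fragments, a ratio of 0.860 (0.462 to 1.58). The highest H3K27ac summit was 24 fragments with vehicle and 29 with XY018, and 79.3% of genes with a called promoter were as high as VIM with vehicle. The overlapping H3K27ac regions used for the ratio had 17 and 29 fragments, at 1.87 (0.993 to 3.63). VIM-AS1, on the opposite strand, starts nearby, and the regions carry no strand.

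ZEB1 combined a high RORγ level with little H3K27ac. ZEB1 (ENSG00000148516, hg19 chr10:31607424-31818742, plus strand) had 62 RORγ fragments with vehicle and 55 with XY018, and 940 of 12588 genes were as high with vehicle. SREBP2 had 49 and 31 fragments, a ratio of 0.536 (0.330 to 0.857), whereas the RORγ ratio was 0.981 (0.669 to 1.43). H3K27ac had only 32 and 27 fragments, a ratio of 0.924 (0.533 to 1.59). With vehicle, the SREBP2 and RORγ summits fell 902 and 899 bp after the canonical start, 3 bp apart, while the H3K27ac summit fell at −410 bp, on the side where ZEB1-AS1 starts. With XY018 the SREBP2 summit fell at 129 bp, 744 bp from that of RORγ. The SREBP2 ratio of ZEB1 thus compares summits at different places.

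ZEB2 (ENSG00000169554, hg19 chr2:145121931-145278624, minus strand) had the least H3K27ac of the genes with a region, 14 fragments with vehicle and 18 with XY018, at a ratio of 1.41 (0.662 to 3.06). Of the genes with a called promoter, 93.4% were as high with vehicle. RORγ had 39 and 33 fragments, at a ratio of 0.935 (0.570 to 1.53), and 25.2% of genes were as high with vehicle. For SREBP2 the strongest region had 33 fragments with vehicle and 29 with XY018, a level near the median, with 42.4% of genes as high with vehicle. The pair of overlapping SREBP2 regions with the highest sum had 33 and 26, a ratio of 0.667 (0.383 to 1.15). The genes near to ZEB2 in level over the 6 libraries included DCLK3 and HSPA12B, at log2 distances of 0.267 and 0.331.

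SNAI1 (ENSG00000124216, hg19 chr20:48599517-48605423, plus strand), the Snail repressor of CDH1, had the lowest SREBP2 level of the 9 genes, 22 fragments with vehicle and 13 with XY018. RORγ had 14 and 13 fragments. The ratios were 0.500 (0.232 to 1.04) for SREBP2 and 1.03 (0.444 to 2.35) for RORγ, wide intervals because the counts were small. H3K27ac had 43 fragments with vehicle and 61 with XY018, a ratio of 1.55 (1.03 to 2.35). It was the one driver of the mesenchymal state whose H3K27ac interval lay above 1. The factor summits with vehicle lay at −333 and −283 bp and the H3K27ac summit at 357 bp.

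SNAI2 (ENSG00000019549, hg19 chromosome 8, 49830157 to 49834299, minus strand), the Slug repressor, had 32 SREBP2 fragments with vehicle against 15 with XY018, and its ratio of 0.397 (0.200 to 0.754) was the lowest of the 9 genes. RORγ was the reverse in sign, with 12 and 17 fragments and a ratio of 1.57 (0.705 to 3.59), an interval that held 1. H3K27ac had 45 and 32 fragments, a ratio of 0.779 (0.479 to 1.25). With vehicle the 3 summits lay between 110 and 144 bp after the canonical start.

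TWIST1 (ENSG00000122691, hg19 chr7:19060614-19157259, minus strand), a bHLH factor of mesoderm and neural crest, had the highest factor levels of the 10 genes with vehicle, and with XY018 the same SREBP2 level as CDH1. SREBP2 reached 71 fragments (55.5 to 89.6) with vehicle against 51 with XY018. RORγ reached 76 (59.9 to 95.1) and 63. With vehicle, 354 of 14184 genes were as high for SREBP2 and 418 of 12588 for RORγ, which is the top 2.50% and 3.32%. H3K27ac at the same promoter had only 19 and 27 fragments, and 86.0% of genes with a called promoter were as high with vehicle. The ratios were 0.608 (0.416 to 0.884) for SREBP2, 0.916 (0.646 to 1.30) for RORγ and 1.56 (0.834 to 2.96) for H3K27ac. Its nearest genes in level over the 6 libraries were MCOLN3, RIMKLA and GLIPR2.

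Ordered by SREBP2 fragments with vehicle, the genes ran TWIST1, CDH1, VIM, ZEB1, OVOL1, ZEB2, SNAI2, CDH2 and SNAI1, and the counting intervals of each pair of neighbours in this order overlapped. For RORγ the order was TWIST1, ZEB1, CDH2, CDH1, ZEB2, VIM, OVOL1, SNAI1 and SNAI2, again with overlapping neighbours. For H3K27ac the order was CDH1, GRHL2, OVOL1, SNAI2, SNAI1, ZEB1, VIM, TWIST1 and ZEB2. Here the intervals of CDH1 and GRHL2, of GRHL2 and OVOL1 and of OVOL1 and SNAI2 did not overlap, while the others did. The epithelial genes therefore ranged from 94 to 238 H3K27ac fragments with vehicle and the other 6 genes with a region from 14 to 45. The factors showed no such split, with SREBP2 at 43 and 60 fragments in OVOL1 and CDH1 and at 22 to 71 in the other 7 genes.

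The genes nearest in level over the 6 libraries were found for the others by the same measure. For ZEB1 they were TNFRSF25, XYLT1 and KL, at log2 distances of 0.316 to 0.406, genes that likewise had 22 to 28 times background in H3K27ac beside 74 to 91 in RORγ. For VIM they were IL12A, CATSPERZ and ETV5 (0.494 to 0.524), and for OVOL1 COP1 and, sharing 1 region, MTX1 and THBS3 (0.569 to 0.594). For SNAI1 they were MICAL1, WDR27 and SOX7 (0.323 to 0.368), and for SNAI2 SH3TC1, ARL15 and TMEM94 (0.338 to 0.450).

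XY018 was next compared with vehicle across the 9 genes with a pair of overlapping promoter regions. For SREBP2 the ratio was below 1 at all 9 genes, from 0.397 to 0.993, with a median of 0.536, beside a median of 0.621 over 12336 genes. At 8 of the 9 genes the direction did not depend on the scaling, the exception being CDH2. The SREBP2 level was at least 1.5-fold lower at 6 of the 9 genes, against 62.3% of all pairs, and at least 1.5-fold higher at none, against 0.0567% of all pairs. The interval lay below 1 at OVOL1, VIM, ZEB1, SNAI2 and TWIST1, of which OVOL1 had nearly equal folds over local background. At OVOL1, VIM and ZEB1 the paired summits lay apart. A lower SREBP2 level was the rule for promoters at large, so these shares lay near those of all genes.

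RORγ at the same promoters differed little between treatments, with ratios from 0.860 to 1.57 and a median of 0.981, beside 0.967 over 11308 genes. It was lower at 5 genes and higher at 4, at least 1.5-fold lower at none (9.55% of all pairs) and at least 1.5-fold higher at 1, SNAI2 (7.32% of all pairs). Each of the 9 intervals held 1. H3K27ac was higher at 7 of 9 genes, with a median ratio of 1.47, beside 1.27 over 12877 genes, of which 10355 had a higher level. It was at least 1.5-fold higher at 4 genes, OVOL1, VIM, SNAI1 and TWIST1 (22.6% of all pairs), and at least 1.5-fold lower at none (3.08% of all pairs). The genes with a lower H3K27ac level were ZEB1 and SNAI2, and both intervals held 1. H3K27ac was higher at all 3 epithelial genes, with intervals above 1, which was also the usual direction over all genes. The plot of ratios sets the 3 antibodies side by side.

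**Figure D2:**
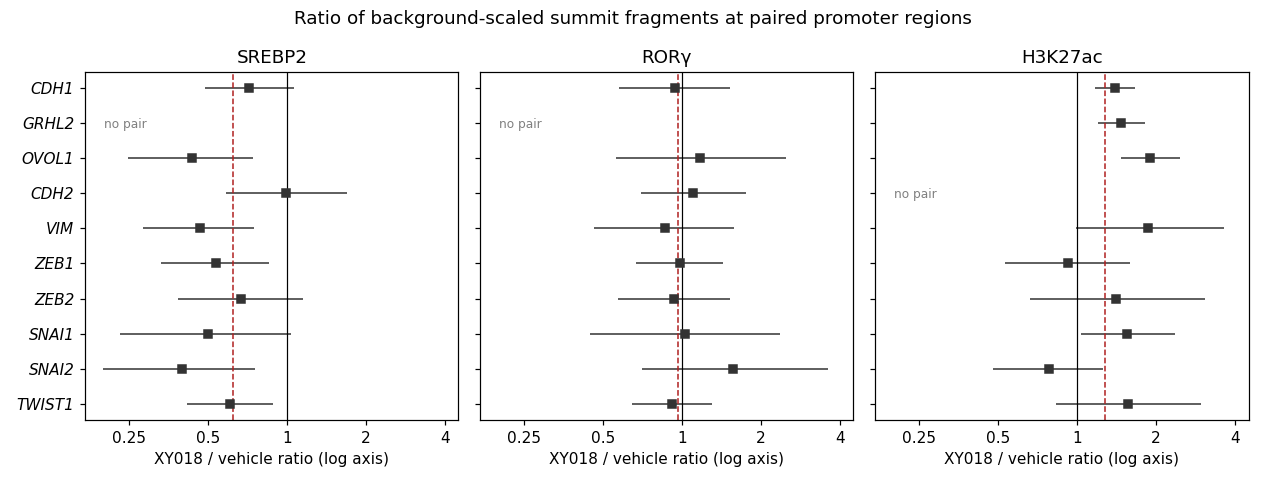
Ratio of XY018 to vehicle (log axis) in background-scaled summit fragments at the paired promoter regions of each gene. Squares are single pairs of libraries, bars exact 95% intervals for counting error, the solid line marks 1 and the dashed red line the median over all genes. SREBP2 ratios lie at or left of 1, RORγ bars all cross 1, and the H3K27ac bars of CDH1, GRHL2, OVOL1 and SNAI1 lie right of 1.

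Beyond the promoters, regions were counted within each gene and 20 kb to either side. Over the 10 loci the SREBP2 lists held 58 regions with vehicle against 31 with XY018. The RORγ lists held 72 and 61, and the H3K27ac lists 128 and 149. The whole lists differed in the same directions, with 117441 and 69700 SREBP2, 167264 and 129954 RORγ and 95099 and 105371 H3K27ac regions. At a q of at most 1e-05 the RORγ counts at the 10 loci were 17 and 18, so their direction depended on the threshold. CDH1 alone held 59 of the H3K27ac regions with vehicle and 65 with XY018, which covered 26.9% and 29.8% of its 138.2 kb window. That is 42.7 and 47.0 regions per 100 kb, where the median gene had 4.85 and 5.33, and 505 of 20090 genes were as dense with vehicle. GRHL2 held 40 and 54 H3K27ac regions, or 18.4 and 24.9 per 100 kb, SNAI1 12 in each list, or 26.1 per 100 kb, and OVOL1 6 and 8. The remaining loci had few, from 0 at CDH2 and 1 at ZEB1 to 4 at VIM with vehicle. ZEB1, ZEB2 and TWIST1 lay under the median density for H3K27ac, at 0.398, 1.02 and 1.46 regions per 100 kb in both lists.

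**Figure D3:**
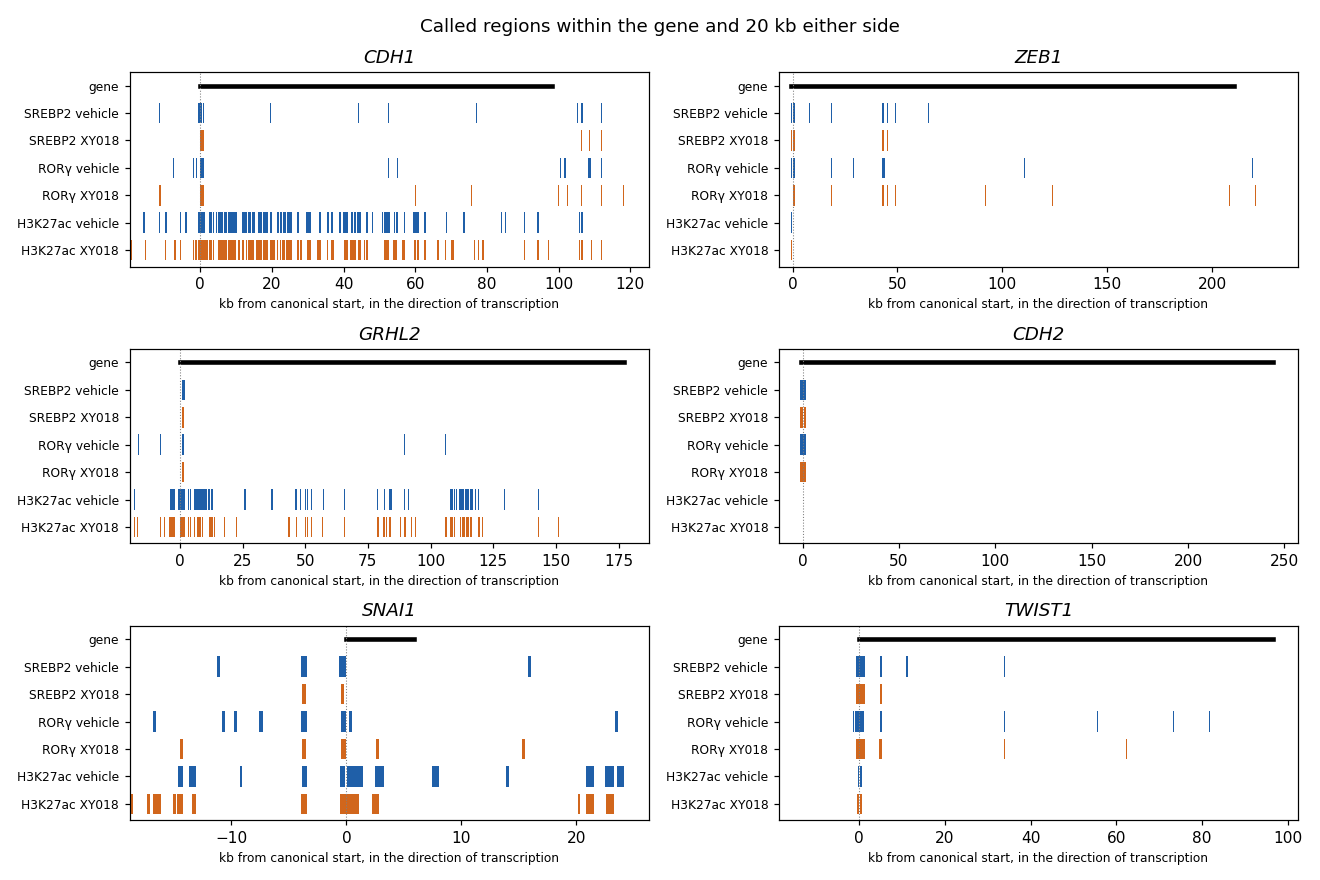
Called regions of the 6 libraries within 6 of the genes and 20 kb to either side, by distance in kb from the canonical start in the direction of transcription, with the gene as a black bar. Regions narrower than 0.25 kb are drawn at that width. H3K27ac fills the first part of CDH1 and lies near the start of GRHL2 and in groups further into that gene. It is limited to the start of ZEB1 and TWIST1, and is absent from the lists at CDH2.

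Factor regions were unevenly spread over the same loci. With vehicle, CDH1, OVOL1, VIM, SNAI1 and SNAI2 lay above the median density for SREBP2 and CDH1, OVOL1, VIM and SNAI1 above that for RORγ. CDH1 had 12 SREBP2 regions with vehicle against 5 with XY018, which is 8.68 and 3.62 per 100 kb where the median gene had 5.49 and 3.39. Its RORγ regions numbered 14 and 11. ZEB1 had 9 and 5 SREBP2 regions and 13 RORγ regions in each list, yet 1 H3K27ac region in each. CDH2 had 2 SREBP2 regions in each list and 4 and 8 RORγ regions. OVOL1 had the highest density of SREBP2, with 10 and 6 regions, or 19.9 and 12.0 per 100 kb, and the promoter of AP5B1 lies in its window.

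**Figure D4:**
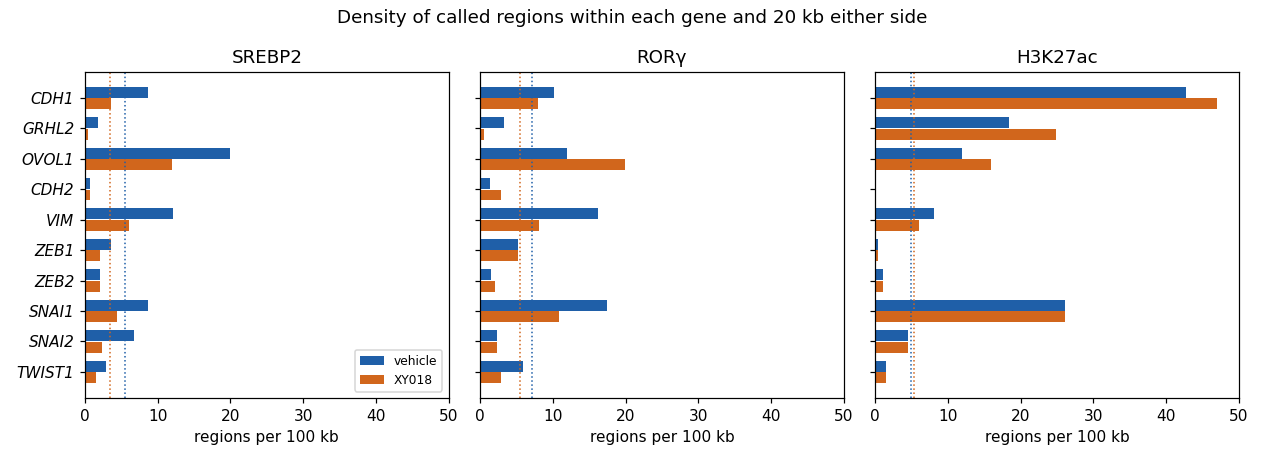
Regions per 100 kb within each gene and 20 kb to either side, with vehicle in blue and XY018 in orange, 1 library per bar. Dotted lines mark the median over 20090 protein-coding genes. The H3K27ac bars of CDH1 are the longest, at 42.7 and 47.0 per 100 kb, and CDH2 has none.

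Of the 58 SREBP2 regions with vehicle, 24 (41.4%, exact binomial interval 28.6 to 55.1) overlapped an XY018 region, beside 39.8% of all SREBP2 regions. At the genes' own promoters 12 of 15 were kept, beside 74.0% of all promoter regions, and elsewhere 12 of 43. At a q of at most 1e-05 the kept share of SREBP2 was 62.5%. For RORγ 24 of 72 regions (33.3%, 22.7 to 45.4) were kept, beside 36.4% of all, with 10 of 13 at own promoters, beside 78.6% of all promoter regions, and 14 of 59 elsewhere. The RORγ share was 50% at a q of at most 0.01 and 100% at 1e-05. No share over all regions is given at these q thresholds or for regions outside promoters. Those values therefore cannot be set against the whole lists. For H3K27ac 104 of 128 (81.3%, 73.4 to 87.6) were kept, beside 69.3% of all, with 19 of 22 at own promoters, beside 86.9% of all promoter regions. Regions away from promoters were also the weaker ones, with a median vehicle fold of 4.24 for SREBP2 against 10.3 at own promoters, and the part of this strength in their loss was not tested. CDH1 kept 49 of 59 H3K27ac regions but 4 of 12 SREBP2 and 2 of 14 RORγ regions. With GRHL2, which had 40, CDH1 held most of the 128 H3K27ac regions. The intervals treat regions of the same locus as independent.

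Of the 58 SREBP2 regions with vehicle 25 (43.1%) overlapped a RORγ region and 21 (36.2%) an H3K27ac region, beside 49.0% and 27.3% of all SREBP2 regions. With XY018, 27 of 31 (87.1%, 70.2 to 96.4) overlapped RORγ and 19 (61.3%) overlapped H3K27ac, beside 64.0% and 36.6% of all. Only 23 of the 128 H3K27ac regions (18.0%) overlapped SREBP2 with vehicle and 22 (17.2%) overlapped RORγ, beside 32.1% and 27.9% of all H3K27ac regions. With XY018 these were 17 of 149 (11.4%) and 20 (13.4%), beside 22.7% and 23.3% of all. Most of the H3K27ac regions at these loci thus carried no called factor, and with vehicle 59 of the 128 lay at CDH1 and 40 at GRHL2.

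Outside every annotated promoter, the strongest SREBP2 region of CDH1 lay in an intron 0.834 kb after the start, with 38 fragments with vehicle and 20 with XY018, a ratio of 0.446 (0.246 to 0.785), next to the promoter region. The strongest H3K27ac region outside promoters lay in an intron at 40.9 kb, with 28 fragments and 15. In GRHL2 an intronic H3K27ac region at 83.9 kb had 42 fragments with vehicle and 35 with XY018. Neither of these H3K27ac regions overlapped a factor region with vehicle. SNAI1 had a SREBP2 region at −3.73 kb with 25 and 16 fragments, which overlapped both RORγ and H3K27ac, and OVOL1 one at −8.36 kb with 29 and 22, which did so too. Each of these regions was picked by its vehicle fold, which favours lower values with XY018.

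In ZEB1 and CDH2 the strongest intronic regions held both factors and no H3K27ac. ZEB1 had one 43.2 kb after the start, where SREBP2 had 33 fragments with vehicle against 30 with XY018 and RORγ 29 against 36. CDH2 had one 1.58 kb after the start, with 36 and 25 SREBP2 fragments and 35 and 23 RORγ fragments. Another, at 5.02 kb in TWIST1, coincided with the start of an unnamed gene and was picked out after its values were seen. SREBP2 had 65 fragments there with vehicle against 37 with XY018, a ratio of 0.482, and RORγ 47 against 39. No SREBP2 ratio at these sites was above 1 (0.770 at ZEB1 and 0.588 at CDH2), while the RORγ ratios were 1.37, 0.726 and 0.917 at ZEB1, CDH2 and TWIST1. In VIM, ZEB2 and SNAI2 the strongest SREBP2 regions outside promoters had 12, 7 and 12 fragments with vehicle, and none of them was listed with XY018. The regions of this paragraph were picked by their vehicle fold, which favours ratios below 1 and calls missing with XY018. No share over all such regions is given, so no conclusion is drawn from their direction.

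The wider program was read from 6 further lists of 64 genes. Of the 9 other regulators of the epithelial state, which include the ESRP splicing factors and KLF5, all 9 had H3K27ac at the promoter under both treatments, with a median of 89.7 times background with vehicle, beside 51.3 over all genes. All 16 epithelial junction and keratin genes had it as well, with a median of 80.3. Of 10 other EMT transcription factors, 4 had it with vehicle and 6 with XY018, though 9 of 10 had a SREBP2 and 9 a RORγ region in both. Over all genes, the shares with a promoter region were 66.8% and 68.0% for H3K27ac, 70.6% and 62.7% for SREBP2 and 62.7% and 61.5% for RORγ, and each list is to be read beside these. TWIST2, TCF4, PRRX1 and GSC had both factors and no H3K27ac in either list, like CDH2, and were picked out after their values were seen. GSC, a homeobox factor of the gastrula organizer, had 77 RORγ fragments with vehicle.

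Among the calls that differed in that list was KLF8, with no H3K27ac region with vehicle and 8 fragments with XY018. The lowest SREBP2 ratio there was that of TCF3 (29 and 14 fragments) and the highest that of TWIST2 (32 and 35). Of 15 mesenchymal effector genes, 8 had H3K27ac in each list, and 10 had SREBP2 with vehicle (66.7%) and 7 with XY018 (46.7%), the former near the share of all genes. ACTA2, TNC and TAGLN, genes of smooth muscle and matrix, lost a SREBP2 call from 5, 11 and 9 fragments, whereas COL1A2 and TAGLN gained a RORγ call of 7 and 3 fragments. These were regions of few fragments. LOX, the collagen cross-linking enzyme, had 28 and 12 SREBP2 fragments, and COL1A2 9 and 10.

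Among the epithelial junction and keratin genes, KRT19 gained a RORγ call of 16 fragments, CLDN4 lost a SREBP2 call of 5, and RAB25 gained one of 7. PKP3, a desmosome protein, had the lowest SREBP2 ratio (35 and 16 fragments) and KRT18 the highest (19 and 24). Of the epithelial regulators ELF3 lost a SREBP2 call of 6 fragments, GRHL1 had 32 and 17, and KLF4 24 and 24. All 8 genes of TGF-beta signalling, the pathway that induces the switch, had regions of all 3 antibodies under both treatments, with SREBP2 from 31 to 20 fragments at SMAD7 and 42 in both libraries at TGFB1. The median SREBP2 ratio of the lists with at least 7 pairs ran from 0.553 for the mesenchymal effectors to 0.743 for TGF-beta signalling, and the median H3K27ac ratio of the lists with 8 or more pairs from 1.32 to 1.43.

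The miR-200 family and miR-205 are microRNAs that repress ZEB1 and ZEB2 and so keep cells epithelial. Their mature sequences, from RefSeq (GRCh38.p14), are shown with the seed in capitals because the seed sorts them into groups that pair with different target sites.
miR-200b-3p: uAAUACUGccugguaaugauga
miR-429: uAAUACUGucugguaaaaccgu
miR-200c-3p: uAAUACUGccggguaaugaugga
miR-200a-3p: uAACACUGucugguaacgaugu
miR-141-3p: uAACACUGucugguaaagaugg
miR-205-5p: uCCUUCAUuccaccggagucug

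The first 3 share the seed AAUACUG, the next pair AACACUG, and miR-205-5p has CCUUCAU. The promoter of the MIR200B, MIR200A and MIR429 cluster had 193 H3K27ac fragments with vehicle and 225 with XY018, in 1 shared region, with 85 and 63 SREBP2 fragments and 63 and 44 RORγ fragments. MIR200C and MIR141 shared a region of 168 and 135 H3K27ac fragments, with a SREBP2 call of 13 fragments with vehicle, none with XY018, and no RORγ. MIR205HG had 41 and 63 H3K27ac fragments and no factor region. H3K27ac was thus called at all 6 loci under both treatments, and the ratios were 1.28 (1.05 to 1.56), 0.880 (0.697 to 1.11) and 1.68 (1.12 to 2.56) for the 3 separate loci.

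The labelled cell type was checked against markers of breast epithelium. KRT5, KRT17, KRT8, KRT18 and EPCAM had H3K27ac at the promoter in both lists and KRT14 did not. Of 5 fibroblast markers only COL1A1 had it, with 110 and 142 fragments, and COL1A2, COL3A1, PDGFRB and DCN had none. Of 3 endothelial markers found in the annotation CDH5 had it, with 12 fragments in each list, while VWF and KDR had none. Among the leukocyte markers CD14 had it, with 17 and 16 fragments, and PTPRC and CD3E had none.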

How the data were processed

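ChIP-seq of HCC70 cells was analysed from 6 peak lists, 1 for each antibody and treatment, grouped by the labels; the 6 input samples were not analysed here. Per the labels, hg19, Bowtie2, MACS2 2.1.0 and bedtools were used, whereas the methods of the study name BWA as the aligner. Duplicate and multiply placed tags were removed by the authors. The lists hold the fold of pileup over local background, each plus 1, and the −log10 p and −log10 q values that the authors deposited for each peak. Peak numbers show that the H3K27ac lists are part of longer call sets, so a gene without a region is only one not listed. No columns of the authors' own comparisons were used.

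Assuming the Poisson model of MACS, whole summit fragments and local background (at least 0.4) were solved for from fold and −log10 p, with a tolerance of 5% of the step between whole numbers, on chromosomes 1 to 22 and X. Between 99.999% and 100.0% of regions came out whole. The most common background scaled each library, and the smallest width (185 to 205 bp) was taken as the fragment length. Promoter pairs were the overlapping regions with the highest summed fragments. Overlap meant at least 1 bp. Fragment numbers carry exact Poisson, shares Clopper-Pearson and ratios exact conditional binomial 95% intervals. A ratio of at least 1.5 either way was counted. Python 3.11.15, numpy 2.4.6, pandas 2.3.3 and scipy 1.17.1 were used, and the inversion and overlaps were tested on simulated data. GENCODE 44 on GRCh37 gave genes and the canonical starts, and RefSeq (GRCh38.p14) the microRNAs, of which 6 of 6 matched.

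The genes and lists were chosen with earlier results of these data known. All 10 genes were named; beside them, the genes sharing their pattern of calls were counted, and the 3 genes nearest in log2 level over 6 libraries were found. In each wider list the genes whose call differed between treatments (up to 4 with the highest sum) and those with the lowest and highest SREBP2 ratio were named. Per antibody, the region of highest vehicle fold outside promoters was taken in each gene, and those that the results turn on are described. Some genes and sequences that these rules name are not reported here. Alternatives were stricter q thresholds, other windows and flanks, another overlap and scaling by tags per kb.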

Additional observations from a re-analysis of the deposited data

How the results depend on the processing

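Of 158 alternative values, 144 stayed within 1.5 times the reported count or within counting error of the reported value, 14 moved and 0 reversed against a counting interval. At a q of at most 1e-05, SREBP2 regions with vehicle numbered 32, RORγ regions 17 with vehicle and 18 with XY018, and the kept share was 62.5% for SREBP2 and 100% for RORγ. At a q of at most 0.01, RORγ regions numbered 42 and 33, and their kept share was 50%. With 50 kb either side, SREBP2 and RORγ regions with vehicle numbered 89 and 120. Within the genes alone, SREBP2 regions numbered 36 with vehicle and 18 with XY018, and RORγ regions 36 and 33. The fewer or wider regions counted are set by these alternatives themselves. The number of genes with a promoter region ran from 7 to 10, with 7 in each library at the canonical start alone. When the summit itself had to lie inside the window, the number was 8 for SREBP2 and 7 for RORγ under either treatment. For H3K27ac it was then 9 with vehicle and 7 with XY018, so that count differed between treatments. No share of all genes is given for that setting. Scaling by tags gave a median SREBP2 ratio of 0.594. No paired analysis was possible because each group held 1 library. Depth limits the ratios of promoters with few fragments, and 1 library per group leaves the spread between cultures unknown.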
